A study of Mus musculus with 38 samples.

Results

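The transcriptomes of osteoprogenitors and stromal progenitors sorted from the bones of myeloma-bearing mice were compared. The comparison took 9 of the 38 libraries of the series, chosen by their labels, with 4 libraries of osteoprogenitors (replicates D, G, I and J) and 5 of stromal progenitors (replicates D, E, G, I and J). Both cell types came from C57Bl/KaLwRij mice aged 8 to 10 weeks that received 5TGM1-GFP myeloma cells intravenously and were culled on day 23. Healthy mice of the same strain that received PBS gave another 9 libraries of the same cell types, in which the same contrast was measured. All cells were released from washed, crushed hindlimb bone with collagenase and were negative for CD45, Ter119 and CD31. Osteoprogenitors were sorted as ALCAM+ Sca1- and stromal progenitors as Sca1+ ALCAM-, with 100 cells in each library. The labels name replicates by letters and do not say whether each came from a separate mouse. The study grouped the cells by these surface proteins alone, so each population may hold several kinds of cell.

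Osteoprogenitors are cells of the bone-forming lineage that lie along the bone surface and mature into osteoblasts, which lay down type I collagen and the proteins that bind mineral to it. Stromal progenitors are earlier mesenchymal cells that can enter bone, fat or fibroblast lineages and supply the marrow with growth factors and chemokines. Myeloma grows in contact with both, and the bone disease it causes combines loss of bone formation with excess resorption by osteoclasts.

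Values are RPKM, read counts divided by transcript length and by a size for each library, so levels of different genes can be set beside each other. The library sizes that the values imply are not the reads on genes. Relative to the average of the 38 libraries, their ratio to the reads on genes was 0.845 to 0.941 in osteoprogenitors and 0.627 to 0.885 in stromal progenitors, lowest in stromal progenitor library J, so differences depend in part on this scaling. Library values are given in the replicate order D, G, I, J for osteoprogenitors and D, E, G, I, J for stromal progenitors. A difference is the mean of log2(RPKM + 1) in osteoprogenitors minus that in stromal progenitors, so positive values are higher in osteoprogenitors, and the added 1 understates the change of low genes. A gene was called when limma gave an adjusted p below 0.1 with a difference above 1 either way. Only genes that exceeded 1 RPKM in 4 or more of the 9 libraries were tested.

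The osteoprogenitor libraries held 11991647 to 19632916 reads on genes and the stromal progenitor libraries 17269127 to 34883291. Genes above 1 RPKM numbered 6715 to 9096 in osteoprogenitors and 6520 to 8035 in stromal progenitors. Pearson's r of log2 values over the 8793 tested genes, which share each library's depth, was 0.626 to 0.77 among osteoprogenitor libraries, 0.564 to 0.714 among stromal progenitor libraries and 0.512 to 0.7 between the cell types. In stromal progenitor library J the 10 most abundant genes took 40.8% of the reads, with the ribosomal RNA gene Rn45s taking 18.1%, against 18.2% to 25.1% for the top 10 in the other 8 libraries. Stromal progenitor library E carried neutrophil transcripts, with 8119 RPKM summed over the neutrophil markers against 0.304 to 122 in the other 8 libraries. Its S100a8 reached 5174 RPKM and its S100a9 1617 RPKM. Endothelial markers summed to at most 4.62 RPKM in any library, and Ptprc, which encodes CD45, reached 4.89 RPKM in stromal progenitor library E and was at most 0.0522 RPKM in the others. The plasma cell marker Igj lay between 0.0388 and 6.81 RPKM, and the plasma cell list summed to 141 to 302 RPKM with Xbp1, a factor of secretory cells in general, at 134 to 288 RPKM. The macrophage and osteoclast markers summed to at most 435 RPKM in osteoprogenitors and to 217 to 1008 RPKM in stromal progenitors, those of tendon and muscle to 8.70 to 986 RPKM and 89.3 to 371 RPKM, and those of Schwann cells and nerve to 149 to 247 RPKM and 24.1 to 147 RPKM. Erythroid Alas2 was at most 7.45 RPKM. On the first principal component of log2 values, which held 22.0% of the variance, stromal progenitor library I lay at 132 and the other stromal progenitor libraries at 10.8 to 43.6, and on the second, with 17.6%, it lay at 109.8 and the others at -70.5 to -46.3. Counts of called genes without E, I or J are given beside the main counts.

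**Figure D1:**
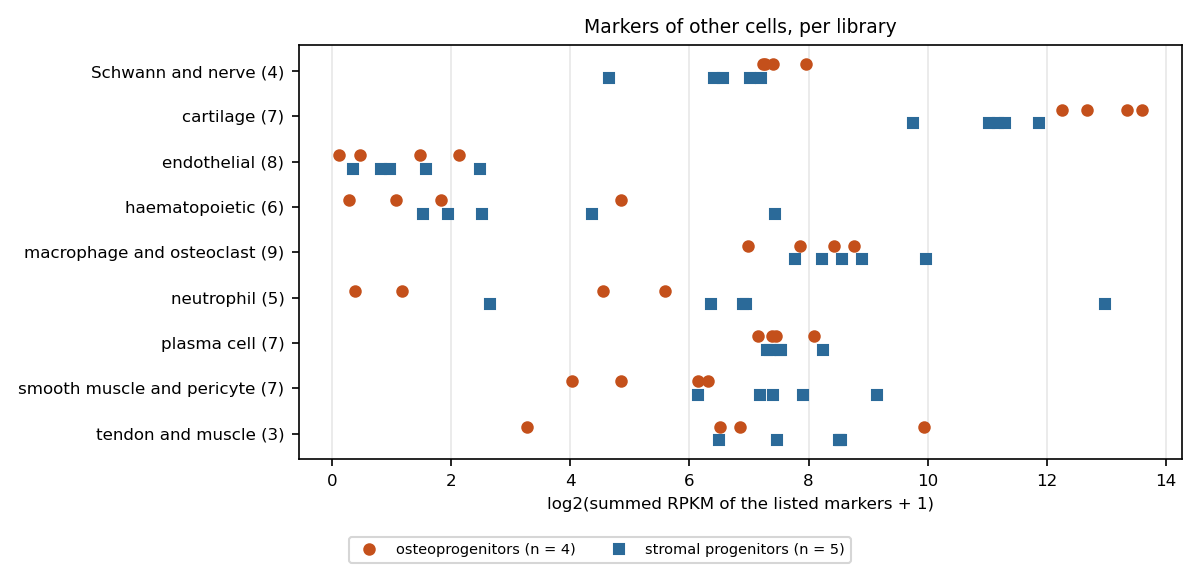
Summed RPKM of marker genes of other cell types, as log2(sum + 1), in each of the 9 libraries, with osteoprogenitors as circles, stromal progenitors as squares and the number of markers in brackets. Stromal progenitor library E stands apart for neutrophil markers at 8119 RPKM, and the 4 osteoprogenitor libraries lie above the 5 stromal progenitor libraries for cartilage markers.

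The transcripts of the 2 proteins used for the sort followed the gates. Alcam was 2.94, 8.07, 19.2 and 10.8 RPKM in osteoprogenitors and 0, 1.43, 0.0603, 0 and 0.0228 RPKM in stromal progenitors. Ly6a, which encodes Sca1, was 31.8, 35.5, 5.58 and 18.8 RPKM in osteoprogenitors and 1421, 776, 2871, 1136 and 955 RPKM in stromal progenitors. Neither gene overlapped between the cell types, and both are checks of the sort. The study took established markers and described their expression in its own sorted cells, so their direction here is not independent evidence, and it gave several genes for both populations. Beside Alcam, 9 were given for osteoprogenitors and not as enriched in stromal progenitors, though 5 of these with some expression in the latter. Of these, 7 were called higher in osteoprogenitors (Bglap, Dkk1, Sp7, Bmp7, Alpl, Col1a1 and Cdh2), and the other two, the cartilage and progenitor factor Sox9 and the osteoblast factor Runx2, had differences of 1.49 and 2.59 with adjusted p of 0.154 and 0.237. Both were called with all 38 libraries in 1 fit, at adjusted p of 0.0688 for Sox9 and 0.029 for Runx2, and when 1 RPKM was required in every library of a group, at 0.074 and 0.095. Sox9 was also called with voom weights, with quantile normalisation and when scaled to reads on genes, at adjusted p of 0.0609, 0.0678 and 0.0729. Beside Ly6a, 5 were given for stromal progenitors, and Cxcl12, Lepr and Pdgfrb among them for osteoprogenitors too. Of these 5 limma called 0, with 1 at an unadjusted p below 0.05 and 1 called with voom weights, Prrx1 in both cases. Prrx1, a homeobox factor of limb mesenchyme, was 48.5, 18.1, 36.9 and 4.83 RPKM in osteoprogenitors and 119, 77.7, 49.3, 68.8 and 106 RPKM in stromal progenitors. Its libraries did not overlap, but the difference of -1.93 (95% confidence interval -3.35 to -0.51) had an adjusted p of 0.191. Pdgfra, Lepr, Pdgfrb and Cxcl12 had differences of -0.71, -0.33, -0.27 and -0.01 and overlapped between the cell types. Most of the 9 thus passed the test, and the 5 given for stromal progenitors were expressed in both cell types.

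Of 8793 genes tested, 295 were called (3.35%), with 141 higher (1.60%) and 154 lower (1.75%) in osteoprogenitors. The libraries of the cell types did not overlap in 496 genes (5.64%), and this held for 131 of the 141 called higher and 131 of the 154 called lower. The median difference over all tested genes was -0.01, and the 5th and 95th percentiles were -2.01 and 2.14. With limma on voom-weighted recovered reads 251 genes were called, 61.8% of them higher in osteoprogenitors against 47.8% here, and 206 (69.8%) of the 295 were shared. With each library scaled to its reads on genes, an alternative chosen after seeing the data, the median over all genes rose to 0.17 and 300 genes were called, 184 higher (61.3%) and 116 lower, of which 257 were among the 295. The count was 210 without stromal progenitor library E (111 higher and 99 lower), 311 without I (135 and 176) and 302 without J (148 and 154). Without osteoprogenitor library D, G, I or J it was 242, 217, 205 and 187 over the same genes, of which 116, 88, 92 and 82 were higher. RNA of a bulk sample cannot tell fewer cells of a type from less RNA per cell.

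The 10 largest differences towards osteoprogenitors held genes of mineralising bone (Bglap, Bglap2 and Ifitm5), genes of cartilage (Col9a1, Matn3 and Lect1) and 4 genes of neither list (Car3, Lipc, Mlip and Cpz). Car3, a carbonic anhydrase (chromosome 3, 14863512 to 14872523, GRCm38), was 1846, 2692, 1135 and 2146 RPKM in osteoprogenitors and at most 1.70 RPKM in stromal progenitors. Every osteoprogenitor library was above every stromal progenitor library, and the difference of 10.32 ± 0.60 (SE) was the largest of all called genes, with an adjusted p of 5.63e-08. Bglap, the bone matrix protein osteocalcin (chromosome 3, 88383501 to 88384464), was 54769, 29189, 35374 and 23958 RPKM in osteoprogenitors. In stromal progenitors Bglap was 14.4, 49.5, 61.3, 157 and 197 RPKM, and the difference was 8.96 ± 0.57 (SE, adjusted p = 1.19e-07). On the RPKM scale the osteoprogenitor mean was 35823 ± 13465 (SD, n = 4) and the stromal progenitor mean 95.9 ± 77.5 (SD, n = 5), a ratio of 373. The next genes were Ifitm5, a membrane protein of osteoblasts, at 8.79, the osteocalcin copy Bglap2 at 8.68, and the cartilage collagen Col9a1 at 7.64. They were followed by Lipc, hepatic lipase, at 6.87, Matn3, a cartilage matrilin, at 6.82, and Lect1, the cartilage protein chondromodulin, at 6.41. Mlip at 6.21 and the carboxypeptidase Cpz at 6.19 completed the first 10. None of these 10 overlapped between the cell types, and all kept their call in every fit with 1 library left out that tested them. Col9a1, Lipc and Cpz passed the filter only through the osteoprogenitor libraries, so their lack of overlap was set by the filter.

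**Figure D2:**
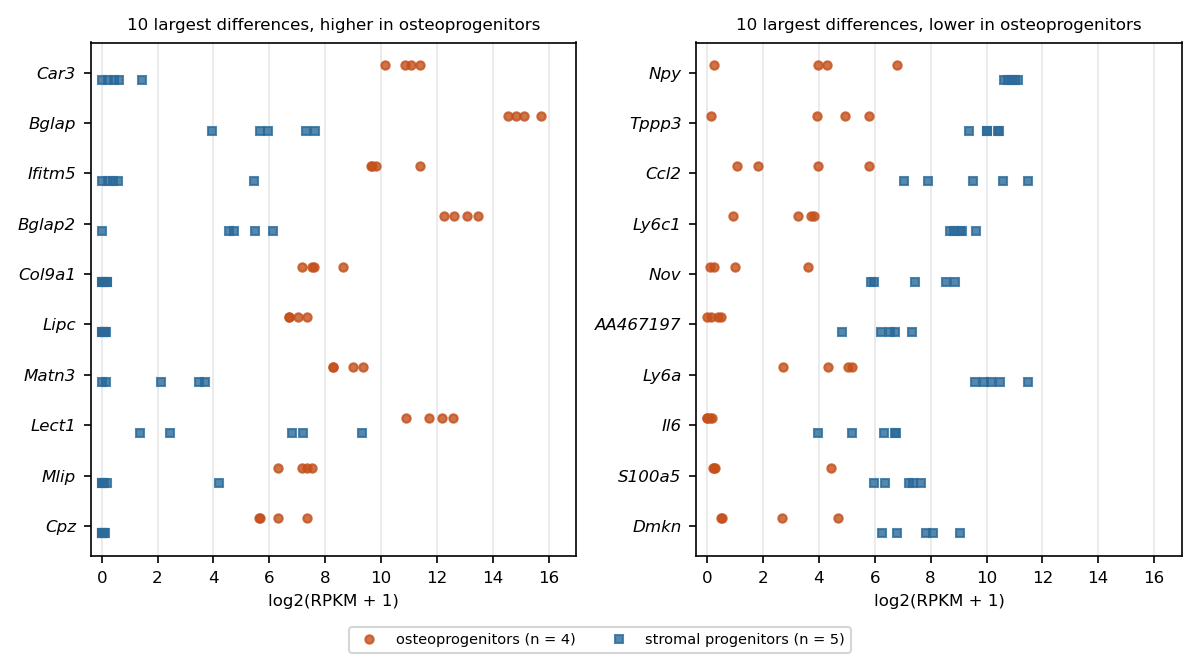
Values as log2(RPKM + 1) in each of the 9 libraries for the 10 called genes with the largest difference in each direction, with osteoprogenitors as circles and stromal progenitors as squares. Car3 reaches 2692 RPKM in osteoprogenitors and 1.70 RPKM at most in stromal progenitors, and Npy shows the opposite order with 1562 RPKM or more in every stromal progenitor library.

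Most genes of the bone matrix were higher in osteoprogenitors. Of the 29 tested, 17 were called higher and 1 lower, with a median difference of 3.20 against -0.01 over all genes. Among mineral-binding proteins 5 of 9 were called higher (Bglap, Bglap2, Bglap3, Ibsp and Sparc). Ibsp, bone sialoprotein, was 5185, 4020, 3835 and 5203 RPKM in osteoprogenitors and 2623, 1544, 699, 897 and 2023 RPKM in stromal progenitors, so both cell types expressed it and the difference was 1.70 (adjusted p = 0.0145). Spp1, osteopontin, was the member called lower. It was 8836, 8402, 5577 and 5985 RPKM in osteoprogenitors and 18700, 29095, 9108, 12692 and 21148 RPKM in stromal progenitors, a difference of -1.25 (adjusted p = 0.0318). The lowest stromal progenitor library thus lay above the highest osteoprogenitor library.

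The 3 osteocalcin genes lie side by side on chromosome 3 and share sequence. Of the 50-base stretches of their annotated transcripts, 74.7% in Bglap, 88.2% in Bglap2 and 7.03% in Bglap3 also occur in another of the 3, so reads may have been assigned between Bglap and Bglap2 and their separate levels are uncertain. Bglap2 was 11454, 6290, 8609 and 4909 RPKM in osteoprogenitors against 0 to 69.9 RPKM in stromal progenitors. Bglap3 was 21.6, 3.91, 6.58 and 9.74 RPKM in osteoprogenitors and 0 in all 5 stromal progenitor libraries, at least 39.8-fold higher when 3 reads in each library were taken as the limit of a count of 0.

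Collagens of the bone matrix were called higher in 6 of 9 tested. Col1a1, the main chain of bone collagen (chromosome 11, 94936224 to 94953042), was 9341, 5144, 6110 and 4206 RPKM in osteoprogenitors and 702, 1066, 162, 933 and 962 RPKM in stromal progenitors. The difference was 3.20 ± 0.46 (SE, adjusted p = 0.00088), an 8.10-fold ratio of mean RPKM, and no library overlapped. Its partner chain Col1a2 differed by 2.82. The fibrillar collagen Col24a1, which accompanies type I collagen in bone, was 58.4, 13.8, 15.8 and 40.9 RPKM in osteoprogenitors and at most 1.59 RPKM in stromal progenitors, a difference of 4.52. Col11a2, Col11a1 and Col22a1 differed by 4.04, 3.67 and 3.63.

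Of 11 tested enzymes and transporters of mineralisation, 6 were called higher. Phex, the endopeptidase lost in X-linked hypophosphataemia, was 184, 32.6, 35.9 and 79.0 RPKM in osteoprogenitors and at most 0.117 RPKM in stromal progenitors, a difference of 5.99 (adjusted p = 0.00107). The citrate transporter Slc13a5 was 32.3, 38.9, 44.6 and 21.0 RPKM against at most 0.0518 RPKM, a difference of 5.06. Both were thus close to absent from stromal progenitors. Ifitm5 was 2672, 794, 821 and 897 RPKM in osteoprogenitors and 0, 0.163, 0.337, 0.509 and 42.8 RPKM in stromal progenitors, with library J highest among the latter. Alpl, tissue-nonspecific alkaline phosphatase, was 102, 228, 335 and 131 RPKM in osteoprogenitors and 19.4, 18.7, 0.618, 20.7 and 51.7 RPKM in stromal progenitors. Its difference of 3.59 had an adjusted p of 0.0322, and the call was lost without osteoprogenitor library G or I, where the adjusted p was at most 0.135, and without the trend or the filter on low values, at 0.101 and 0.15. Smpd3 and the secretory kinase Fam20c differed by 3.94 and 3.87. The 17 higher calls numbered 15 without stromal progenitor library E, 19 without I, 19 without J, 17 with voom weights and, over the same genes, 17 without osteoprogenitor library D, 14 without G, 13 without I and 15 without J. Spp1 lost its call without osteoprogenitor library I or J, at adjusted p of 0.12 and 0.11 over the same genes. It was also not called without the trend, without the filter on low values or with all 38 libraries in 1 fit, at adjusted p of 0.449, 0.252 and 0.687, or when scaled to reads on genes, where the difference was -0.998 and so just inside the threshold of 1.

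**Figure D3:**
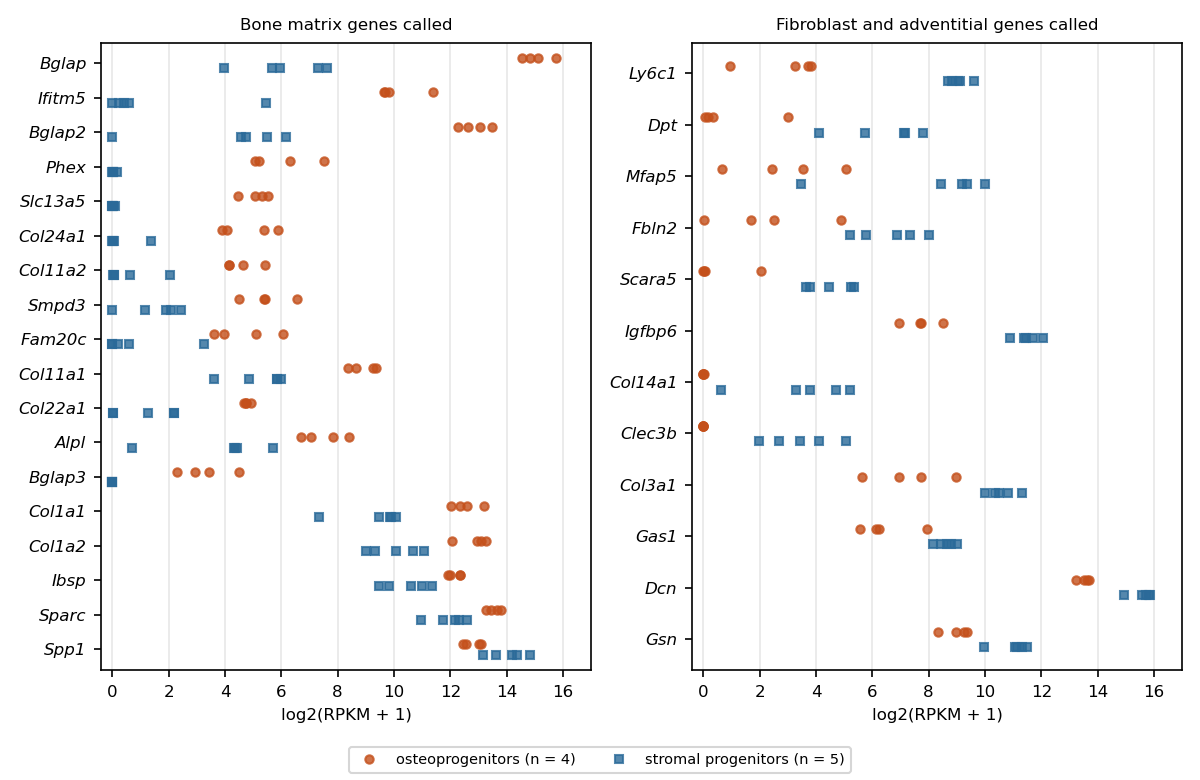
Values as log2(RPKM + 1) in each of the 9 libraries for the called genes of bone matrix (18, left) and of fibroblasts (12, right), with osteoprogenitors as circles and stromal progenitors as squares. Bglap lies between 23958 and 54769 RPKM in osteoprogenitors and Dcn between 31527 and 59278 RPKM in stromal progenitors.

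The 250 bases before the transcription start of the named called genes were searched for the core letters of a RUNX site, ACCACA, on both strands (TGTGGT on the other), since Runx2 is the master factor of osteoblasts. RefSeq windows (GRCm38.p6) existed for 34 of the 58 genes, and 3 genes held a match. These 3 are shown. Bglap and Dkk1 were called higher and Dpt lower in osteoprogenitors, so the match occurs on both sides. The windows are chr3:88384467-88384716 on the minus strand, chr19:30549497-30549746 on the minus strand and chr1:164796413-164796662 on the plus strand, written 5′ to 3′ with the core letters in capitals.
Bglap: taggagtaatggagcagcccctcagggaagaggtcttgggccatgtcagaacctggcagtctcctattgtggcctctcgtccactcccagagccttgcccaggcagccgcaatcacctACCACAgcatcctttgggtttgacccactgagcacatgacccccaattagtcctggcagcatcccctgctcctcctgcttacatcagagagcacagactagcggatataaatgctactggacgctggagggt
Dkk1: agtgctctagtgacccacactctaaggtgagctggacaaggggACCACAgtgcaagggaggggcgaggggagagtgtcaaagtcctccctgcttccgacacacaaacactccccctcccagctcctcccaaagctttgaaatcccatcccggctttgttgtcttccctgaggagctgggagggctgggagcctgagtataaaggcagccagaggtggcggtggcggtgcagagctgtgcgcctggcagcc
Dpt: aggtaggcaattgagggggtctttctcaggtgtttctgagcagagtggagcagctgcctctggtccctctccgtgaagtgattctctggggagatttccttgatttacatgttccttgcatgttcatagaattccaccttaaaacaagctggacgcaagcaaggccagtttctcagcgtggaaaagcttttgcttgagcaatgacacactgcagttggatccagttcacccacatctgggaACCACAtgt
The match began 132 bases before the start in Bglap, 207 in Dkk1 and 9 in Dpt. These letters occurred in 14.0% of all promoter windows, in 10.4% of windows of tested genes, in 10.4% of those of genes called higher and in 13.3% of those of genes called lower. Among bone matrix genes called higher, 1 of 17 windows (5.88%) held them.

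Cartilage genes were measured as markers of another cell type. Of the 7 tested, 5 were called higher in osteoprogenitors (Col9a1, Matn3, Lect1, Col9a2 and Col2a1), with a median difference of 5.97, and none lower. Col2a1, the main collagen of cartilage, was 1883, 1536, 3989 and 2243 RPKM in osteoprogenitors and 101, 45.4, 36.6, 11.8 and 207 RPKM in stromal progenitors. Lect1 was 3343, 1890, 4713 and 6108 RPKM in osteoprogenitors and 111, 4.51, 147, 1.62 and 633 RPKM in stromal progenitors. Neither gene overlapped between the cell types. The summed cartilage markers ran from 4904 to 12403 RPKM in osteoprogenitors and from 866 to 3732 RPKM in stromal progenitors, and none of the 7 was at 0 in osteoprogenitors. The cartilage protein Comp was the tested marker with a negative difference, -0.67 (adjusted p = 0.603). The share of chondrocytes in the sorted cells, and its part in the bone matrix differences, was not tested.

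Among skeletal transcription factors, Sp7 was called higher in osteoprogenitors. Sp7, osterix, which is required for osteoblast formation, was 25.7, 11.2, 17.2 and 11.7 RPKM in osteoprogenitors and 0, 0, 0, 0 and 0.643 RPKM in stromal progenitors, a difference of 3.91 (adjusted p = 0.0122). Sp7 passed the filter only through the 4 osteoprogenitor libraries, so its lack of overlap was set by the filter. All 8 tested osteoblast factors had positive differences, with a median of 2.42. Runx2 was 15.3, 12.8, 28.9 and 24.1 RPKM in osteoprogenitors and 0.855, 4.26, 14.4, 0.00469 and 1.82 RPKM in stromal progenitors, where library G overlapped. The 10 tested factors of mesenchymal progenitors had a median of -0.93, with 9 negative, 0 called by limma and 1 at an unadjusted p below 0.05 (Prrx1).

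Towards stromal progenitors, the first 10 genes were Npy, Tppp3, Ccl2, Ly6c1, Nov, AA467197, the sort gene Ly6a, Il6, S100a5 and Dmkn. Npy, neuropeptide Y (chromosome 6, 49822710 to 49829507), was 1951, 1738, 2238, 2075 and 1562 RPKM in stromal progenitors and 0.181, 18.6, 109 and 14.7 RPKM in osteoprogenitors, a difference of -7.07 ± 0.86 (SE, adjusted p = 0.000159). The 5 stromal progenitor libraries were close to one another, at 1913 ± 268 RPKM (SD, n = 5), whereas the osteoprogenitor libraries spread widely. The tubulin-binding protein Tppp3 was 659.9, 1401, 1348, 1043 and 1033 RPKM in stromal progenitors and 0.0964, 29.5, 54.7 and 14.2 RPKM in osteoprogenitors, a difference of -6.36. Ccl2, the chemokine that attracts monocytes, was 130.1, 1536, 2833, 736 and 239 RPKM in stromal progenitors and 54.5, 2.56, 1.09 and 14.6 RPKM in osteoprogenitors. Its difference was -6.14 (adjusted p = 0.00167). No library of the cell types overlapped for these 3 genes, but with voom weights the adjusted p of Ccl2 was 0.407.

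Ly6c1, a surface protein encoded near Ly6a, differed by -6.12 (adjusted p = 2.04e-05) and Nov, the matricellular protein CCN3, by -6.10. AA467197, Il6, S100a5 and Dmkn followed with differences of -6.09, -5.73, -5.63 and -5.50. Nov and Dmkn lost the call with voom weights, with adjusted p of 0.232 and 0.21, and the other genes of the first 10 apart from Ccl2 kept it.

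Of 27 tested fibroblast and adventitial genes, which mark connective tissue around vessels and bone, 12 were called lower in osteoprogenitors and 0 higher by limma, and 15 did not pass the test. The median difference was -2.06, with 24 negative and 3 positive. The lower calls numbered 11 without stromal progenitor library E, I or J, 10 with voom weights and, over the same genes, 9 to 11 without 1 osteoprogenitor library. Dcn, decorin, a small proteoglycan that binds collagen (chromosome 10, 97479609 to 97518143), was the most abundant of these. It was 53506, 48713, 59278, 31527 and 58118 RPKM in stromal progenitors and 9712, 13171, 11826 and 12668 RPKM in osteoprogenitors, a difference of -2.06 ± 0.20 (SE, adjusted p = 1.85e-05), so osteoprogenitors also expressed it strongly. Dcn kept its call under every other alternative tried but lost it without the trend, at an adjusted p of 0.104, where 9 of the 27 genes were called lower. Igfbp6, a binding protein of insulin-like growth factors, was 2804, 3362, 4304, 1904 and 2675 RPKM in stromal progenitors and 123, 363, 211 and 204 RPKM in osteoprogenitors, a difference of -3.79 (adjusted p = 1.43e-05). Col3a1, the collagen of loose connective tissue, differed by -3.28, opposite to Col1a1. The matrix proteins Dpt, Mfap5 and Fbln2 differed by -5.49, -5.16 and -4.36. Mfap5 was 343, 588, 1015, 650.2 and 9.97 RPKM in stromal progenitors and 0.560, 32.8, 4.46 and 10.5 RPKM in osteoprogenitors, and library J lay within the range of the osteoprogenitors. With voom weights Dpt, Mfap5 and Fbln2 were not called, at adjusted p of 0.15, 0.621 and 0.299. Clec3b, tetranectin, was 2.90 to 32.3 RPKM in stromal progenitors and 0 in all 4 osteoprogenitor libraries, at least 59.1-fold higher in stromal progenitors. Scara5 differed by -3.96 and lost its call without osteoprogenitor library I or J, at an adjusted p of at most 0.125. Lum, another abundant small proteoglycan, had a difference of -0.69 (adjusted p = 0.335).

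Among markers of smooth muscle and pericytes, which wrap vessels, Acta2 was called lower in osteoprogenitors. It was 61.1, 48.8, 194, 102 and 29.3 RPKM in stromal progenitors and 0.0767, 13.5, 0.367 and 0.190 RPKM in osteoprogenitors, a difference of -4.99 (adjusted p = 0.00681, or 0.139 with voom weights). The pericyte gene Rgs5 was 81.7, 301 and 160.2 RPKM in stromal progenitor libraries D, G and J, 0 in E and I, and at most 0.225 RPKM in osteoprogenitors. The summed list ran from 69.8 to 568 RPKM in stromal progenitors and from 15.4 to 78.9 RPKM in osteoprogenitors, and 1 of the 5 tested markers was called. Rgs5 did not pass the filter on low values, and of the 5 tested 3 had positive and 2 negative differences, with a median of 0.18. Tagln, Cspg4 and Mcam, the positive ones, overlapped between the cell types. The part of such cells in the differences of fibroblast genes was not tested.

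Wnt signalling promotes bone formation, and secreted antagonists such as Dkk1 and the Sfrp proteins hold it back. Of 23 Wnt genes tested 5 were called, and all 5 were among the 7 secreted antagonists tested, 3 higher and 2 lower in osteoprogenitors. Dkk1, which blocks the LRP co-receptors, was 69.4, 16.8, 9.78 and 16.4 RPKM in osteoprogenitors and 0 in all 5 stromal progenitor libraries, at least 391-fold higher. Its difference was 4.46 (adjusted p = 0.00827). Wif1, which binds Wnt ligands, was 869, 1207, 1455 and 1941 RPKM in osteoprogenitors and 498, 849, 236, 162 and 459.6 RPKM in stromal progenitors, a difference of 1.80 (adjusted p = 0.0447). Notum, which removes the lipid of Wnt ligands, was 12.7, 43.6, 33.4 and 18.1 RPKM in osteoprogenitors and 0, 12.7, 0, 0 and 0.0839 RPKM in stromal progenitors, a difference of 3.87 (adjusted p = 0.0624). Stromal progenitor library E alone reached the lowest osteoprogenitor value of Notum.

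Sfrp4 was 181, 377, 854, 139.7 and 353 RPKM in stromal progenitors and 0.505, 28.9, 189 and 36.0 RPKM in osteoprogenitors, a difference of -3.71 (adjusted p = 0.0691), and osteoprogenitor library I overlapped. Dkk3 was 70.3, 93.7, 117, 310.2 and 71.9 RPKM in stromal progenitors and 1.38, 13.5, 35.3 and 36.5 RPKM in osteoprogenitors, a difference of -2.94 (adjusted p = 0.0731) with no overlap. The antagonists thus did not move one way. Wif1, Notum, Sfrp4 and Dkk3 lost the call in some fits with 1 library left out, with adjusted p up to 0.167, 0.173, 0.154 and 0.161. Dkk1 kept it in the 9 of 13 such fits that tested it, but passed the filter only through the osteoprogenitor libraries. With voom weights, or without stromal progenitor library E, 4 Wnt genes were called higher and 0 lower. Over the same genes, 3 were called higher and 0 lower without osteoprogenitor library D, 2 and 0 without G, 1 and 2 without I and 1 and 1 without J. Without stromal progenitor library G the counts were 2 and 0, and without I or J 3 and 1. Limma called 0 of the 9 receptors, 4 ligands or agonists and 3 targets tested, and 1, 2 and 1 of them had an unadjusted p below 0.05.

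Osteoclasts form under RANKL (Tnfsf11), which its decoy receptor osteoprotegerin (Tnfrsf11b) holds back, and Il6 and Ccl2 promote their formation. Of 9 tested regulators, 3 were called, all lower in osteoprogenitors (Ccl2, Il6 and Tnfrsf11b). Il6 (chromosome 5, 30013114 to 30019981) was 14.7, 79.2, 35.4, 108 and 105 RPKM in stromal progenitors and 0, 0, 0.116 and 0.0750 RPKM in osteoprogenitors, a difference of -5.73 ± 0.88 (SE, adjusted p = 0.00138). At most 2 reads of Il6 were present in any osteoprogenitor library against 219 to 2918 in stromal progenitors. Tnfrsf11b was 383, 394, 442, 460.4 and 339 RPKM in stromal progenitors and 78.3, 107, 220.0 and 123 RPKM in osteoprogenitors. The groups did not overlap and the difference was -1.70 (adjusted p = 0.0318, or 0.108 without osteoprogenitor library G and 0.212 without the trend). Tnfsf11 was 27.0, 33.0, 5.88 and 19.7 RPKM in osteoprogenitors and 16.1, 0, 0.0268, 25.6 and 0.986 RPKM in stromal progenitors, where D and I overlapped, and its difference of 2.29 had an adjusted p of 0.447.

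The log2 ratio of Tnfsf11 to Tnfrsf11b, with 1 RPKM added to each gene, was -1.50, -1.67, -5.01 and -2.59 in osteoprogenitors and -4.49, -8.63, -8.75, -4.12 and -7.42 in stromal progenitors. In stromal progenitor libraries E, G and J Tnfsf11 was under 1 RPKM, so their ratios are set largely by the added value and the size of the difference is not firm. Osteoprogenitor library I lay within the stromal progenitor range. The difference in means was 3.99, or 5.38 with 0.1 RPKM added, and both had a p of 0.0476 in a two-sided exact permutation test, for which the smallest possible p with 4 and 5 libraries is 0.00794. It was 3.47 to 4.76 with 1 library left out, with p from 0.0357 to 0.107 in the same exact test.

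BMP signalling, which drives mesenchymal cells towards bone, is the pathway the study centred on, and its list of BMP genes was used as given there. Of 30 tested, 1 was called higher, 1 lower (Tnfrsf11b, counted above among the osteoclast regulators) and the median was -0.17, or 0.04 when scaled to reads on genes. Over all tested genes, 1.60% were called higher and 1.75% lower. Bmp7 was 1.71, 11.1, 31.2 and 29.0 RPKM in osteoprogenitors and 0, 0, 0, 0.0204 and 0 RPKM in stromal progenitors, a difference of 3.73 (adjusted p = 0.0309), and it was also one of the study's osteoprogenitor markers. At most 1 read of Bmp7 was found in a stromal progenitor library. Limma called 0 of the 5 receptors, the 8 Smad and Smurf genes and the 4 antagonists or modulators tested, and 0, 1 and 0 of them had an unadjusted p below 0.05. The most abundant members, the target genes Id2 and Id3, had differences of 0.22 and 0.40 with adjusted p of 0.875 and 0.676. Id2 was 1032 to 1311 RPKM in osteoprogenitors and 515 to 1408 RPKM in stromal progenitors, and Id3 1578 to 2918 RPKM and 1216 to 2946 RPKM, so both overlapped.

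Receptors and ligands of hormones, hedgehog and growth factors were called in 6 of 31 tested, 4 higher and 2 lower. Vdr, the vitamin D receptor, was 24.9, 20.7, 24.2 and 16.2 RPKM in osteoprogenitors and 0, 0.00885, 0, 0.0368 and 2.26 RPKM in stromal progenitors, a difference of 4.12 (adjusted p = 0.0143). Lifr, the receptor of leukaemia inhibitory factor, was 94.7, 97.0, 119 and 88.1 RPKM in osteoprogenitors and 15.5, 2.39, 5.51, 12.1 and 18.7 RPKM in stromal progenitors, a difference of 3.34 (adjusted p = 0.0135). Both kept the call whichever library was left out, in every fit that tested them. The hedgehog inhibitor Hhip differed by 3.22 and the ligand Pdgfa by 2.53, with adjusted p of 0.0741 and 0.077. Egfr differed by -3.16 and Igfbp5 by -1.55, with adjusted p of 0.0849 and 0.0558. Hhip, Pdgfa, Egfr and Igfbp5 did not overlap between the cell types but lost the call in 10, 9, 12 and 6 of 13 fits with 1 library left out. The adjusted p in these fits reached 0.246, 0.288, 0.241 and 0.183. With voom weights Pdgfa and Egfr were not called, at adjusted p of 0.26 and 0.192. The counts were 2 higher and 0 lower without stromal progenitor library E or, over the same genes, without osteoprogenitor library J, and 5 and 1 without stromal progenitor library I.

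Complement genes encode plasma proteins of innate defence that stromal cells also make. Of 12 tested, 3 were called lower in osteoprogenitors and 0 higher by limma, with a median of -1.21. Serping1, the C1 inhibitor, was 1877, 1484, 2027, 865 and 3200 RPKM in stromal progenitors and 145, 381, 403 and 428 RPKM in osteoprogenitors, a difference of -2.47 ± 0.41 (SE, adjusted p = 0.00293). It did not overlap and kept its call under every alternative tried, with adjusted p up to 0.0973. C1s, the protease that Serping1 blocks, and Cd55, which breaks up the C3 convertase, differed by -2.57 and -3.80 (adjusted p = 0.0762 and 0.0574). Both lost the call with voom weights, at adjusted p of 0.231 and 0.277, and 1 lower call was left without stromal progenitor library E or J or, over the same genes, without osteoprogenitor library G, against 4 without stromal progenitor library I.

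Of 13 matrix metalloproteinases and inhibitors tested, 1 was called higher and 2 lower. The inhibitor Timp3 was 325, 363, 139.9, 591 and 304 RPKM in stromal progenitors and 57.9, 75.7, 172 and 34.5 RPKM in osteoprogenitors, a difference of -2.11 (adjusted p = 0.05), and stromal progenitor library G overlapped. Timp2 differed by -1.45 and the protease Mmp16 by 3.79, with adjusted p of 0.0793 and 0.0534. All 3 lost the call without stromal progenitor library E or, over the same genes, without osteoprogenitor library D or J. Of 17 genes of marrow support, Cdh2, the cadherin of osteoblast contacts with marrow cells, was called higher at 2.96 (adjusted p = 0.0675) and Il6 lower. Cdh2 lost its call in 9 of 13 fits with 1 library left out, with adjusted p up to 0.159, and with the replicate letter as a block, at 0.213. The chemokine Cxcl12 was 129.6, 109, 329.8 and 232 RPKM in osteoprogenitors and 474, 224, 75.7, 101 and 248 RPKM in stromal progenitors, with complete overlap. Of 38 genes of the secretory pathway, the collagen prolyl hydroxylase Lepre1 was called higher at 2.87 and the collagen processing enhancer Pcolce2 lower at -2.11, with adjusted p of 0.0639 and 0.0308. These counts are near the share over all tested genes, 1.60% called higher and 1.75% lower. Lepre1 lost its call in 10 of 13 fits with 1 library left out, among them those without each osteoprogenitor library, with adjusted p up to 0.192, and with the letter as a block, at 0.203. Pcolce2 lost it without osteoprogenitor library G, without the trend and without the filter on low values, at adjusted p of 0.1, 0.189 and 0.122.

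Other gene groups held few called genes or none. Limma called 0 of 13 adipogenic genes, 0 of 9 antigen presentation genes, 0 of 6 cell cycle genes, 0 of 13 glycolysis genes and 0 of 15 immediate-early genes, with medians between -0.04 and 0.43. At an unadjusted p below 0.05, 1, 1, 0, 2 and 1 of these passed in the same order, against 1095 of all tested genes (12.5%), and voom weights gave 1 call, an immediate-early gene. Scaled to reads on genes, 1 immediate-early and 1 antigen presentation gene were called higher. Adipoq, adiponectin, was 156, 445, 495 and 292 RPKM in osteoprogenitors and 328, 48.7, 1.31, 0.781 and 519 RPKM in stromal progenitors, with a wide spread in the latter. Of 34 interferon response genes 1 was called, against 3.35% of all tested genes. This gene, Ifi27l2a, was lower at -2.41 (adjusted p = 0.0534). It was 109, 229, 37.6 and 59.7 RPKM in osteoprogenitors and 138, 299, 897, 856 and 673 RPKM in stromal progenitors, where D overlapped, and it lost the call without osteoprogenitor library I or J or stromal progenitor library G, I or J, at adjusted p of up to 0.182, and with voom weights.

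**Figure D4:**
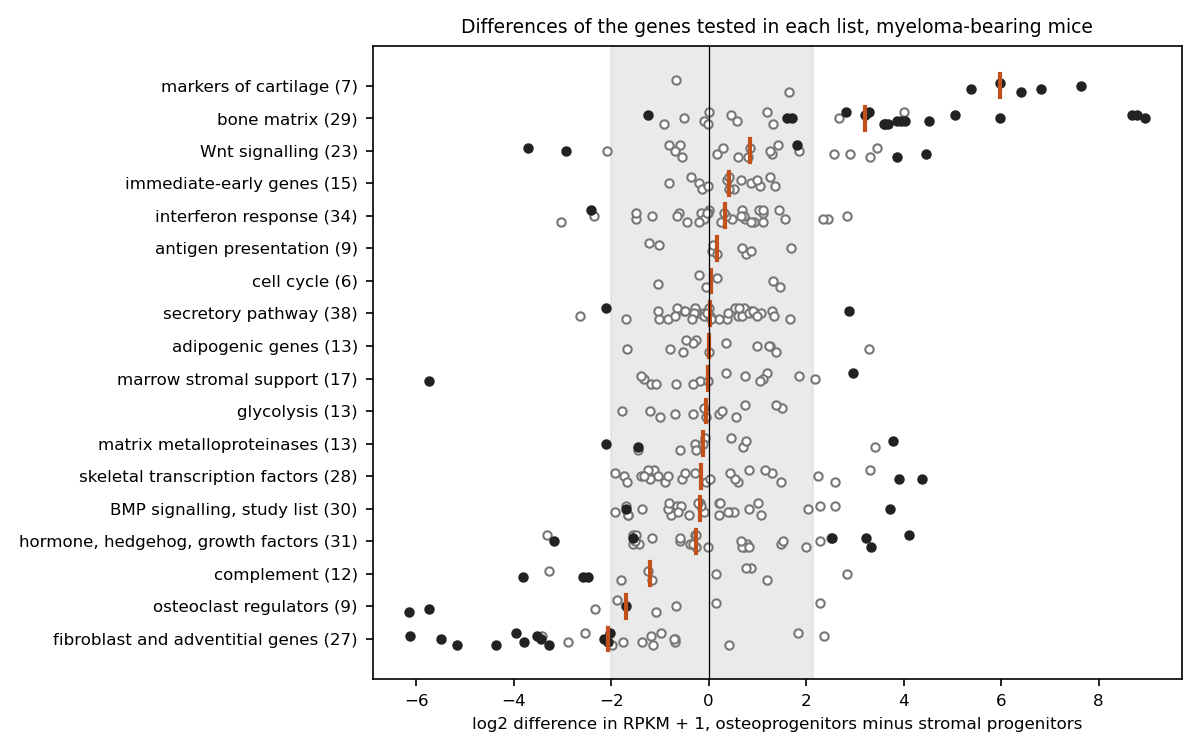
Difference of osteoprogenitors minus stromal progenitors on the log2(RPKM + 1) scale for each tested member of the gene lists, with 1 point per gene, filled where called, the list median as an orange bar and the 5th to 95th percentiles of all tested genes, -2.01 to 2.14, shaded. Bone matrix genes centre on 3.20 and fibroblast and adventitial genes on -2.06, while immediate-early and glycolysis genes hold no filled point.

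In healthy mice, the same contrast was measured in 4 osteoprogenitor and 5 stromal progenitor libraries that the comparison above did not use. Of 8707 genes tested, 312 were called (3.58%), 147 higher (1.69%) and 165 lower (1.90%), and the libraries of the cell types did not overlap in 538 genes (6.18%), with 256 higher (2.94%) and 282 lower (3.24%). Of the 295 genes called in myeloma-bearing mice, 270 were tested in healthy mice, 258 had the same sign, 12 the opposite sign and 155 were called there too, which is 52.5% of the former calls and 49.7% of the latter. Bglap differed by 8.47 in healthy mice against 8.96 under myeloma, Car3 by 9.70 against 10.32, and Dcn by -2.01 against -2.06. Bone matrix genes had 15 calls higher and 0 lower of 28 tested, with a median of 2.12, and fibroblast genes 16 lower and 0 higher of 28, with a median of -1.98. The main contrasts of bone matrix and fibroblast genes were thus measured in both sets of mice.

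**Figure D5:**
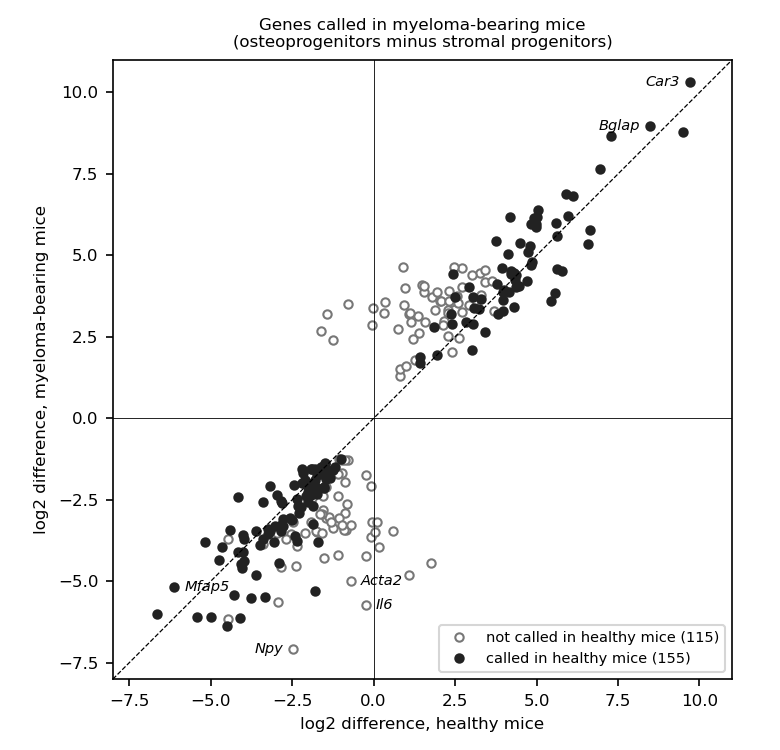
Difference of osteoprogenitors minus stromal progenitors on the log2(RPKM + 1) scale in healthy mice (horizontal) and in myeloma-bearing mice (vertical), for the 270 genes called in the latter and tested in both, filled where called in both (155), with a dashed line of equal values. Bglap at 8.47 and 8.96 lies near the line and Il6 at -0.24 and -5.73 away from it.

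Whether the contrast itself differed between the mice was tested with an interaction term over the 18 libraries. Of 10735 genes tested, limma called 0, and 437 (4.07%) had an unadjusted p below 0.05. Voom weights also gave 0 calls, but all 38 libraries in 1 fit gave 16, and a pseudocount of 0.1 gave 1. Il6 in healthy mice ran from 0 to 20.4 RPKM in osteoprogenitors and from 0 to 88.7 RPKM in stromal progenitors, with a difference of -0.24, and the interaction of -5.49 ± 1.88 (SE) had an unadjusted p of 0.0076 and did not pass adjustment. Npy ran from 62.2 to 1937 RPKM in healthy osteoprogenitors and from 1439 to 4012 RPKM in healthy stromal progenitors, so it overlapped there, and its interaction of -4.60 ± 1.26 (SE) had an unadjusted p of 0.00135. Hhip ran from 10.1 to 28.3 RPKM and from 8.69 to 23.9 RPKM in the respective healthy cells, with an interaction of 2.90 and an unadjusted p of 0.00564. Of the 295 genes, 39 had an unadjusted interaction p below 0.05, and in all 39 the difference was larger in myeloma-bearing mice. These genes had been called in the mice with the larger difference, so that direction is set by their choice.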

How the data were processed

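RNA-Seq libraries of 100 sorted cells were analysed from the deposited table. The authors mapped single-end SmartSeq2 reads with STAR 2.4.0 (GRCm38), counted them with featureCounts (Subread 1.4.5-p1), kept genes on a CPM filter and calculated RPKM with edgeR. The deposited values are RPKM of 13260 genes. Counting ran with default settings, which do not use strand, so reads of overlapping and antisense genes cannot be told apart. Groups and replicate letters are those of the labels, and since no source used here ties a letter to a mouse, p-values measure the spread between these libraries, which may be technical.

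Each comparison used limma 3.58.1 in R 4.3.3 (lmFit, eBayes with trend) on log2(RPKM + 1), two-sided with Benjamini-Hochberg adjustment, fitted on the 9 libraries of a contrast, or on 18 with an interaction term. The fit was tested on simulated data. The Tnfsf11 to Tnfrsf11b ratio, with 1 RPKM added to each gene, was tested by exact permutation. Reads were recovered as whole multiples of each gene's smallest RPKM step, within 0.01 of a whole number, for all 13260 genes, and gave depth, lower bounds of folds (3 reads in each library, covering counting error only) and the voom fit. Deviations of libraries with the same letter correlated at 0.093 at most, below a threshold of 0.1, so no pairing was used.

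Genes were named by a rule: the sort genes, the study's markers, the 10 largest called differences each way, and per list up to 6 called members with the largest difference and the 2 most abundant. Other list members are named as counts required and were picked after their values were seen. The members, lists and rule were chosen with earlier results of these data known. Coordinates are from GENCODE vM21. Libraries of endothelial and myeloma cells entered the alternative fit of all 38 libraries alone. The result of 1 gene is not reported here.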

Additional observations from a re-analysis of the deposited data

Results flagged for a closer look

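The 106 named genes were looked at in each cell type, and 16 groups in which no library reached 1 RPKM were left out. Of the 196 groups tested, 30 had a highest or lowest library whose gap to the nearest other library exceeded Dixon's 95% critical value on the log2(RPKM + 1) scale. Chance flags about 1 in 20 groups.

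Osteoprogenitor library G was high for 6 genes. Its values were 13.5 RPKM for Acta2, 7.01 for Dpt, 179 for Lyz2, 20.5 for S100a5, 3.15 for Scara5 and 12.3 for Scx, while the other 3 libraries were at most 0.367, 0.269, 0.231, 0.228, 0.0449 and 0.933 RPKM. Dpt, Scara5, Acta2 and S100a5 were called lower in osteoprogenitors, and Lyz2 is a macrophage and neutrophil gene. Elsewhere in osteoprogenitors, Ifitm5 was 2672 RPKM in D, S100a8 was 22.4 RPKM in I, Pcna was low at 14.6 RPKM in I, Serping1 was low at 145 RPKM in D and Timp1 was low at 345 RPKM in J.

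Stromal progenitor library E was high for 6 genes, with 1.43 RPKM of Alcam, 136 of Cd52, 1.59 of Col24a1, 12.7 of Notum, 790.3 of Pcolce2 and 288 of Xbp1. Stromal progenitor library J was high for Alas2 at 7.45 RPKM, Ifitm5 at 42.8 RPKM and Vdr at 2.26 RPKM, and low for Mfap5 at 9.97 RPKM. Stromal progenitor library G was low for Alpl at 0.618 RPKM, Col1a1 at 162 RPKM, P4hb at 151 RPKM and S100b at 16.4 RPKM, and high for Mmp16 at 3.25 RPKM. In stromal progenitor library D, Bglap2 was 0 and Pcna 20.6 RPKM, both low, and Mlip was high at 17.3 RPKM. Cd55 was low in library I at 32.1 RPKM. The reasons were not tested.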

How the results depend on the processing

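The counts depended on the fit, and the share of calls higher in osteoprogenitors ran from 26.2% (without osteoprogenitor library G) to 61.8% (voom weights). With all 38 libraries in 1 fit, 543 genes were called under myeloma (280 higher, 263 lower) and 16 in the interaction. Requiring 1 RPKM in every library of a group gave 533 (292 and 241), and an adjusted p below 0.05 gave 177 (81 and 96). The lower calls numbered 88 without the trend and 96 with voom weights. A pseudocount of 0.1 gave 1 call in the interaction. With 1 library left out, the calls under myeloma ranged from 142 to 311, the higher ones from 38 (without osteoprogenitor library G) to 148 and the lower ones from 99 (without stromal progenitor library E) to 176. Healthy calls ranged from 181 to 343, those of the interaction from 0 to 1 and the Tnfsf11 to Tnfrsf11b difference from 3.47 to 4.76, with 8 of 9 p above 0.05. Without an osteoprogenitor library, genes expressed in osteoprogenitors alone miss the filter of 4 libraries. Over the genes tested with all 9 libraries, an alternative chosen after seeing the data, the higher calls were 88 without G, 92 without I and 82 without J, and all calls without J were 187.

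With the replicate letter as a block, 195 genes were called (94 higher, 101 lower), or 335 with the letter as a random term. Same-letter correlations of the deviations were -0.000, 0.093, 0.068 and 0.029 for D, G, I and J, so the letter shows no pairing.

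Of the 58 called named genes, 37 kept the call in every fit without 1 library that tested them and 14 lost it with voom weights, 1 of these higher in osteoprogenitors and the rest lower. Without the trend 14 lost it (11 of them lower in osteoprogenitors), without the filter on low values 16, with the letter as a block 9, with all 38 libraries in 1 fit 7 and scaled to reads on genes 5 (C1s, Dkk3, Egfr, Igfbp5 and Timp2). None changed sign. Depth limits statements on genes at 0, where bounds cover counting error.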
